A study of Rattus norvegicus with 11 samples.

Results

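The genes described here are 9 rat genes that set how much phosphate and pyrophosphate bone-forming cells put around themselves and that hold mineral growth in check. They are Alpl, Phospho1, Smpd3, Enpp1, Ankh, Slc20a1, Slc20a2, Mgp and Spp1. They were taken by symbol from a deposited expression table of 32883 genes, and each symbol stood on a single line. The table holds messenger RNA levels of rat bone marrow mesenchymal stem cells (BMSCs), the adherent stromal cells of marrow that give rise to osteoblasts, adipocytes and chondrocytes. All libraries were collected at day 3, with 4 labelled IRDC, 3 labelled imDC and 4 control libraries whose titles name only the BMSCs. The series text names BMSCs given the product it abbreviates as mDC-CM, read here as medium conditioned by dendritic cells, from irradiated (8 Gy) or unirradiated (0 Gy) mDC, beside its controls. Reading IRDC as the 8 Gy arm and imDC as the 0 Gy arm rests on the names alone. What the control cells received, the strain and age of the rats, and the number of batches of medium are not given in the sources used here, so irradiation and batch of medium cannot be told apart. Libraries are titled as biological replicates without a statement that animals or cultures were separate, so p-values here measure only library-to-library spread.

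Hydroxyapatite, the mineral of bone, grows from calcium and inorganic phosphate, and inorganic pyrophosphate blocks that growth. Enpp1 encodes the ectoenzyme that makes pyrophosphate from extracellular ATP, Ankh encodes a membrane protein needed for the release of ATP and pyrophosphate, and Alpl encodes the alkaline phosphatase that cleaves pyrophosphate into phosphate. Inside matrix vesicles, the small membrane sacs in which mineral starts, the Smpd3 sphingomyelinase frees phosphocholine and the Phospho1 phosphatase takes phosphate from it. Slc20a1 and Slc20a2 encode sodium-dependent phosphate importers. Mgp (matrix Gla protein) and Spp1 (osteopontin) encode secreted proteins that bind mineral and slow its growth.

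Levels are FPKM, which counts fragments relative to transcript length and library depth, so levels of different genes can be set side by side. Depth was 20.5 to 21.7 M reads in IRDC libraries, 17.8 to 19.6 M in imDC libraries and 21.2 to 25.5 M in control libraries. A gene was tested where at least 3 libraries reached 1 FPKM, which held for 12521 genes and for 9 of the 9 mineralisation genes. Differences are on the scale of log2(FPKM + 1), which understates changes of low genes, and a gene rose or fell where limma's Benjamini-Hochberg adjusted p over all tested genes was under 0.05. The 10 stromal markers measured summed to 4908 to 4978 FPKM in IRDC, 4827 to 4855 FPKM in imDC and 4049 to 4161 FPKM in control libraries. Of the 9 tested, 6 rose and 3 fell in IRDC against control, 4 rose and 5 fell in imDC against control, and 5 rose and 4 fell in IRDC against imDC (7 and 2, 4 and 3, and 5 and 3 under TMM-like scaling, an alternative that recentres the libraries). Of all tested genes, 24.5% rose and 51.5% fell, 23.1% and 40.1%, and 20.2% and 38.6%, in the same comparisons. Levels of the stromal markers were uneven. Col1a1 averaged 2470, 2382 and 1764 FPKM and Pdgfrb 116, 128 and 187 FPKM in IRDC, imDC and control libraries. Vcam1 averaged 6.03, 16.8 and 32.7 FPKM and Lepr 0.0636, 0.135 and 0.879 FPKM in the same order of groups. The leukocyte marker Ptprc averaged 5.23 FPKM in IRDC, 8.48 FPKM in imDC and 17.6 FPKM in control libraries. Markers of lymphocytes summed to at most 0.0748, 0.161 and 0.151 FPKM and those of endothelium to at most 0.458, 0.683 and 0.784 FPKM in the same order of groups.

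The upstream sequences of Alpl and Phospho1 are shown because these are the phosphatase genes of the set and their levels moved in opposite directions. RefSeq promoter entries were at hand for 4 of the 9 genes (Alpl, Phospho1, Ankh and Spp1), on the GRCr8 assembly, whereas the expression table was built on rn6. Each line gives the 250 bases before the annotated start, 5′ to 3′ on the gene's strand, with letter matches to searched motifs in capitals. The Alpl window is chr5:155289786-155290035 on the minus strand and the Phospho1 window is chr10:81258560-81258809 on the plus strand.
Alpl: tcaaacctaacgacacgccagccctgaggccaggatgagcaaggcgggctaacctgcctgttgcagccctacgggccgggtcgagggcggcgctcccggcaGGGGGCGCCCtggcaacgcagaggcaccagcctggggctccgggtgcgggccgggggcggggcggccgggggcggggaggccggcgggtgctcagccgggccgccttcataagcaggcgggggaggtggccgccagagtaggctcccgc
Phospho1: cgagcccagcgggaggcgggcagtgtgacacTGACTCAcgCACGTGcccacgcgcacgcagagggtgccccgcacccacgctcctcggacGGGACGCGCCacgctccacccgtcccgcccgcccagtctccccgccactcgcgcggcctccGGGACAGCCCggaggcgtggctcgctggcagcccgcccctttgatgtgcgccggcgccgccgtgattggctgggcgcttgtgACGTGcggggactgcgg
The motifs, searched on both strands, were GGG and CC with 5 bases of any kind between them for NF-kB, ACGTG for the hypoxia response core, TGTGGT for Runx and TGANTCA for AP-1. Among 33469 rat promoters of the same length, 42.3% held the NF-kB letters, 16.6% the hypoxia letters, 14.5% the Runx letters and 6.34% the AP-1 letters. The Alpl window held 1 NF-kB match, whose first base lay 149 bases before the start, and no match to the other motifs. The Phospho1 window held 2 NF-kB matches, at 160 and 99 bases, 1 AP-1 match at 219 bases and 3 hypoxia matches. Of those 3, the matches at 210 and 209 bases overlap as CACGTG read on both strands, and the last lies at 17 bases. The Ankh window held 3 NF-kB matches and none of the others, and the Spp1 window held no match to the 4 motifs. Unlike those of Alpl and Phospho1, the Ankh and Spp1 windows overlap the annotated gene. They are not shown and cannot be read as upstream sequence. The Alpl window and the Phospho1 window were each 76% G and C. A match to letters is a description of sequence and shows no binding.

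In IRDC libraries the set split into a part that rose and a part that fell. Mgp (14.5-fold by the ratio of mean FPKM), Enpp1 (7.24-fold), Phospho1 (2.81-fold) and Slc20a1 rose against control libraries, and Alpl (16.8-fold lower), Smpd3 (28-fold lower), Spp1 (3.58-fold lower) and Slc20a2 fell. Ankh differed by -0.06 on the log2 scale and did not pass. In imDC libraries Mgp, Enpp1 and Phospho1 rose and the other 6 genes fell, of which Ankh and Slc20a1 did not pass under TMM-like scaling. Set against imDC libraries, IRDC libraries had higher Enpp1, Mgp, Phospho1, Slc20a1 and Ankh and lower Spp1, Smpd3 and Alpl, and Slc20a2 did not pass.

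Most of the 12521 tested genes passed in each comparison too, so a call by itself says little about these genes. Against control, 8 of the 9 genes passed in IRDC libraries (4 higher, 4 lower), where 76.0% of all tested genes passed (24.5% higher, 51.5% lower). In imDC libraries 9 of the 9 passed (3 higher, 6 lower), where 63.2% of all tested genes passed (23.1% higher, 40.1% lower). With TMM-like scaling 7 of the 9 passed there (3 higher, 4 lower), and 9 passed in IRDC against control. Between IRDC and imDC libraries 8 of the 9 passed (5 higher, 3 lower), where 58.8% of all tested genes passed (20.2% higher, 38.6% lower). Under TMM-like scaling, which removes the shift of the median gene, 50.3% of the calls in IRDC against control were higher, beside 32.3% as reported, 50.5% beside 36.6% in imDC against control and 50.7% beside 34.4% in IRDC against imDC. Quantile normalization gave 46.3%, 44.2% and 50.2%. Lack of overlap between the libraries of 2 groups was also common. It held for 8793, 7864 and 7382 of the 12521 tested genes in IRDC against control, imDC against control and IRDC against imDC. Among the 9 genes it held for 8, 9 and 8, so it too says little by itself. Large changes were less common in the table. At least a 2-fold change on the tested scale, with a call, was seen for 6 of the 9 genes in IRDC against control, for 4 of 9 in imDC against control and for 2 of 9 in IRDC against imDC. Of all tested genes, 15.8%, 6.87% and 5.14% met that rule in the same comparisons. The 9 genes were chosen with earlier results of these data known, so these counts cannot be read as an excess among mineralisation genes. The median difference of the 9 genes was -0.06, -0.18 and 0.12, beside medians over all tested genes of -0.18, -0.09 and -0.09.

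**Figure D1:**
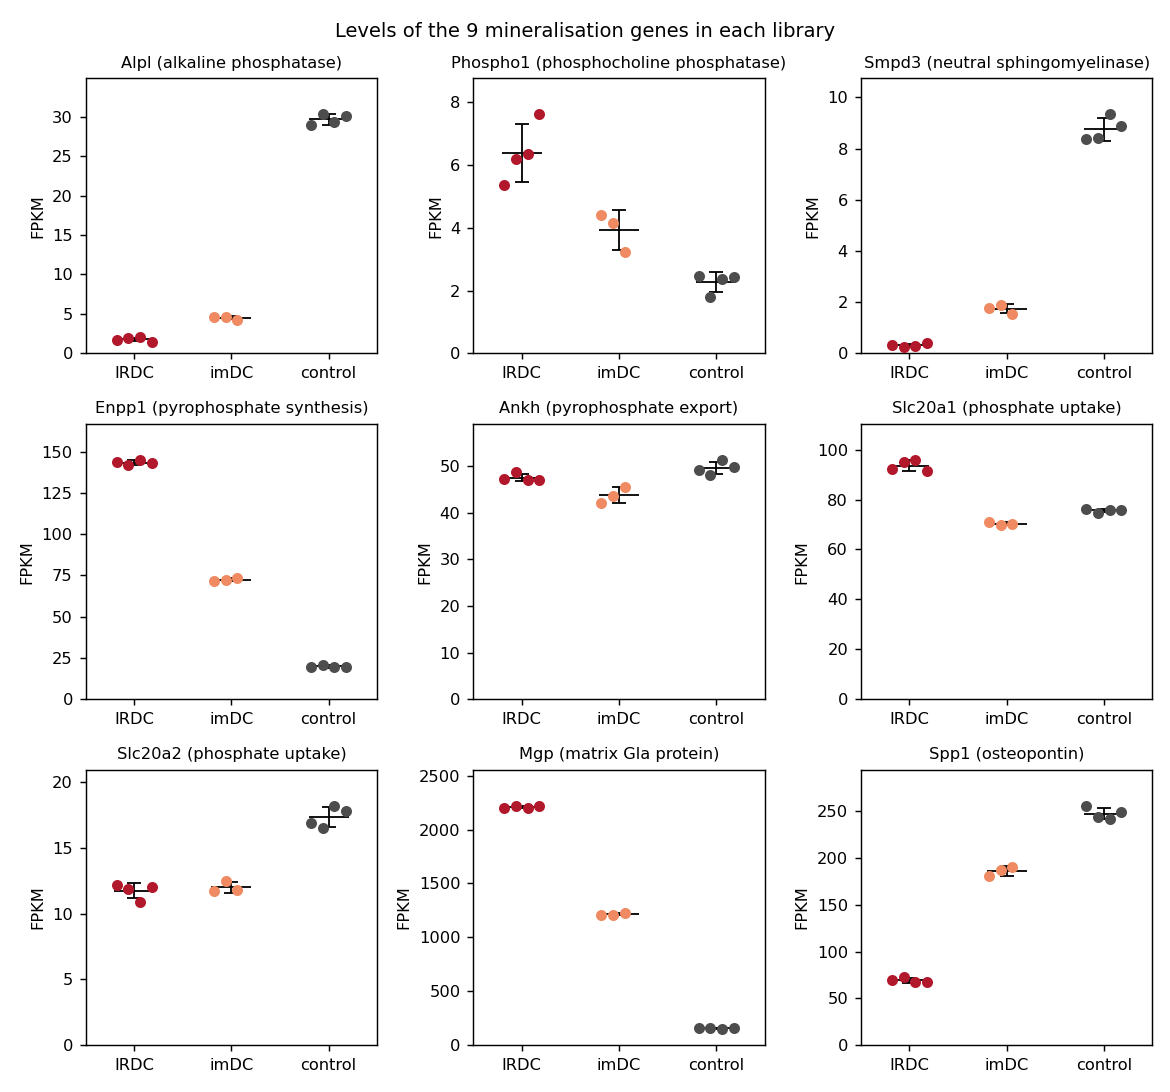
FPKM of each of the 9 genes (vertical axes from 0, a separate scale for each gene) in IRDC, imDC and control libraries, with a point for each library and a bar for the mean ± SD (n = 4, 3 and 4). Mgp and Enpp1 step up and Alpl, Smpd3 and Spp1 step down between control, imDC and IRDC libraries with no overlap, while the Ankh points of IRDC (47.1 to 48.7 FPKM) and control libraries (48.2 to 51.3 FPKM) overlap.

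Alpl (ENSRNOG00000013954), the enzyme that turns pyrophosphate into phosphate, fell in both arms and fell further in IRDC than in imDC libraries. It stood at 1.64, 1.91, 2.01 and 1.49 FPKM in IRDC libraries, at 4.62, 4.62 and 4.26 FPKM in imDC libraries and at 28.9, 30.3, 29.3 and 30.1 FPKM in control libraries. The 3 groups did not overlap, and the IRDC libraries held 78 to 106 reads of the gene against 1493 to 1820 in control libraries. Against control, Alpl fell by 3.48 (SE 0.061, limma adjusted p = 4.7e-14) in IRDC and by 2.48 (SE 0.066, limma adjusted p = 8.1e-12) in imDC libraries. It was 51st and 9th from the lowest of 12521 genes in these comparisons. Between IRDC and imDC libraries it fell by 1.00 (SE 0.066, limma adjusted p = 6.8e-08). These are bulk samples, in which fewer cells of a type and less RNA per cell cannot be told apart.

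Smpd3 (ENSRNOG00000000257), which frees the phosphocholine used in matrix vesicles, was very low in IRDC libraries. It had 0.329, 0.255, 0.275 and 0.389 FPKM in IRDC libraries, from 34, 27, 30 and 42 reads. It had 1.79, 1.9 and 1.55 FPKM in imDC libraries and 8.36, 8.42, 9.34 and 8.88 FPKM in control libraries. No library of a group reached the range of another. Smpd3 fell by 2.89 (SE 0.070, limma adjusted p = 9.5e-13) in IRDC against control, by 1.83 (SE 0.075, limma adjusted p = 5.3e-10) in imDC against control and by 1.07 (SE 0.075, limma adjusted p = 1.2e-07) in IRDC against imDC. Because the gene is low, the added 1 FPKM compresses these values: with 0.1 FPKM added, the Smpd3 differences were -4.43 in IRDC against control and -2.17 in IRDC against imDC, and with voom on recovered reads they were -4.81 and -2.48.

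Phospho1 (ENSRNOG00000005569), the phosphatase that acts next in the same vesicles, went the other way. Its levels were 5.36, 6.21, 6.35 and 7.62 FPKM in IRDC libraries, 4.42, 4.16 and 3.22 FPKM in imDC libraries and 2.48, 1.8, 2.37 and 2.44 FPKM in control libraries. The groups did not overlap, but the SE on the tested scale was the largest of the 9 genes in each comparison. In IRDC libraries the SD was 0.932 FPKM on a mean of 6.39 FPKM. Phospho1 rose by 1.17 (SE 0.110, limma adjusted p = 7.4e-07) in IRDC and by 0.59 (SE 0.119, limma adjusted p = 0.00091) in imDC libraries against control. IRDC libraries stood above imDC libraries by 0.58 (SE 0.119, limma adjusted p = 0.0011). In control libraries Phospho1 was the lowest of the 9 genes, at 2.27 ± 0.317 FPKM (SD, n = 4), and in IRDC libraries it was above both Alpl and Smpd3.

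Enpp1 (ENSRNOG00000013994), the source of extracellular pyrophosphate, rose in both arms and rose further in IRDC libraries. It measured 144, 142, 145 and 143 FPKM in IRDC libraries, 71.6, 72.1 and 73.4 FPKM in imDC libraries and 19.5, 20.9, 19.5 and 19.5 FPKM in control libraries. The spread within each group was small beside the steps between groups, with SDs of 1.05, 0.936 and 0.703 FPKM. Enpp1 rose by 2.80 (SE 0.025, limma adjusted p = 7.8e-17) in IRDC and by 1.82 (SE 0.027, limma adjusted p = 3.2e-14) in imDC libraries against control, and by 0.98 (SE 0.027, limma adjusted p = 1.4e-11) in IRDC against imDC. By level it was 504th of 12521 genes in IRDC, 1162nd in imDC and 4235th in control libraries.

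Ankh (ENSRNOG00000010960), the other gene of pyrophosphate supply, moved little. IRDC libraries had 47.2, 48.7, 47.1 and 47.1 FPKM, imDC libraries 42.1, 43.6 and 45.5 FPKM and control libraries 49.2, 48.2, 51.3 and 49.8 FPKM. IRDC and control libraries overlapped, and the difference of -0.06 (95% confidence interval -0.12 to 0.00, limma adjusted p = 0.074) did not pass. In imDC libraries Ankh fell by 0.18 against control (SE 0.031, limma adjusted p = 0.0003), and it was higher by 0.12 in IRDC against imDC (SE 0.031, limma adjusted p = 0.006). These small values depend on how libraries are scaled. Under TMM-like scaling, Ankh was higher in IRDC than in control libraries by 0.14 (limma adjusted p = 0.000775), the imDC against control difference was -0.08 and did not pass (limma adjusted p = 0.0514), and IRDC against imDC was 0.22. Without control replicate 2 the IRDC against control difference was -0.07 and passed (limma adjusted p = 0.0431). Relative to the median of all tested genes, Ankh stood at 0.12 in IRDC against control and at -0.09 in imDC against control.

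The phosphate importers differed from each other. Slc20a1 (ENSRNOG00000018567) had 92.1, 94.9, 95.8 and 91.6 FPKM in IRDC libraries, 70.9, 69.9 and 70.2 FPKM in imDC libraries and 76.2, 74.6, 75.9 and 75.8 FPKM in control libraries. It was highest in IRDC and lowest in imDC libraries, with no overlap. Slc20a1 rose by 0.30 (SE 0.020, limma adjusted p = 1.9e-08) in IRDC against control and by 0.41 (SE 0.021, limma adjusted p = 6.6e-09) in IRDC against imDC, and fell by 0.10 (SE 0.021, limma adjusted p = 0.00097) in imDC against control. With TMM-like scaling the Slc20a1 difference was 0.51 in IRDC against control and -0.0034 in imDC against control, where it no longer passed (limma adjusted p = 0.914). Relative to the median of all tested genes, Slc20a1 stood at 0.48 in IRDC against control and at -0.02 in imDC against control.

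Slc20a2 (ENSRNOG00000019490), the less expressed importer, had 12.2, 11.9, 10.9 and 12 FPKM in IRDC libraries, 11.7, 12.5 and 11.8 FPKM in imDC libraries and 16.9, 16.5, 18.2 and 17.8 FPKM in control libraries. Both arms lay below the control libraries and overlapped each other. Slc20a2 fell by 0.52 (SE 0.044, limma adjusted p = 2.7e-07) in IRDC and by 0.49 (SE 0.048, limma adjusted p = 1.9e-06) in imDC libraries against control, and TMM-like scaling brought the IRDC value to -0.33. The IRDC against imDC difference of -0.03 (95% confidence interval -0.13 to 0.07, limma adjusted p = 0.62) did not pass, and its sign was positive under TMM-like scaling (0.07), under quantile normalization (0.04) and without IRDC replicate 3 (0.0019).

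Mgp (ENSRNOG00000005695), an inhibitor of calcification that is active once its glutamates are carboxylated, showed the greatest rise of the 9 genes in both arms. Its levels were 2199, 2221, 2201 and 2219 FPKM in IRDC libraries, 1211, 1207 and 1230 FPKM in imDC libraries and 155, 155, 145 and 155 FPKM in control libraries. That placed Mgp 7th by level among 12521 tested genes in IRDC, 24th in imDC and 475th in control libraries. Mgp rose by 3.85 (SE 0.020, limma adjusted p = 1.3e-18) in IRDC and by 2.99 (SE 0.022, limma adjusted p = 8.6e-17) in imDC libraries against control, and by 0.86 (SE 0.022, limma adjusted p = 8.2e-12) in IRDC against imDC.

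Spp1 (ENSRNOG00000043451), a secreted phosphoprotein of bone cells and macrophages that also slows crystal growth, fell where Mgp rose. It had 69.5, 72.2, 67.8 and 67 FPKM in IRDC libraries, 181, 187 and 191 FPKM in imDC libraries and 256, 244, 242 and 249 FPKM in control libraries. The groups were separate, and the step between imDC and IRDC was wider than that between control and imDC. Spp1 fell by 1.82 (SE 0.028, limma adjusted p = 1.1e-14) in IRDC against control, by 0.41 (SE 0.030, limma adjusted p = 1.4e-07) in imDC against control and by 1.42 (SE 0.030, limma adjusted p = 1.5e-12) in IRDC against imDC. Between the arms it was 194th from the lowest of 12521 genes on this scale, and by the ratio of mean FPKM it was 2.7-fold lower in IRDC than in imDC libraries, beside 5.6-fold for Smpd3. The sum of dendritic cell and macrophage markers moved with it. The 16 listed genes summed to 407 to 416 FPKM in IRDC, 783 to 811 FPKM in imDC and 880 to 902 FPKM in control libraries. Of the 10 tested, 9 fell and 1 rose in IRDC against control, 6 fell and 3 rose in imDC against control, and 9 fell in IRDC against imDC. TMM-like scaling gave 8 and 1, 5 and 3, and 9 and 0 in the same comparisons. Of all tested genes, 51.5%, 40.1% and 38.6% fell there. Itgam rose against control by 0.27 in IRDC and by 0.34 in imDC libraries. Adgre1 and Cd74 rose by 0.40 and 1.02 in imDC against control. Lyz2, the largest part of the marker sum in each group, averaged 185, 496 and 519 FPKM in IRDC, imDC and control libraries. Most of the step in that sum between imDC and IRDC libraries was the step of Lyz2. Flt3 averaged at most 0.0297 FPKM in any group and was at 0 in every imDC library. Their part in the Spp1 result was not tested.

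**Figure D2:**
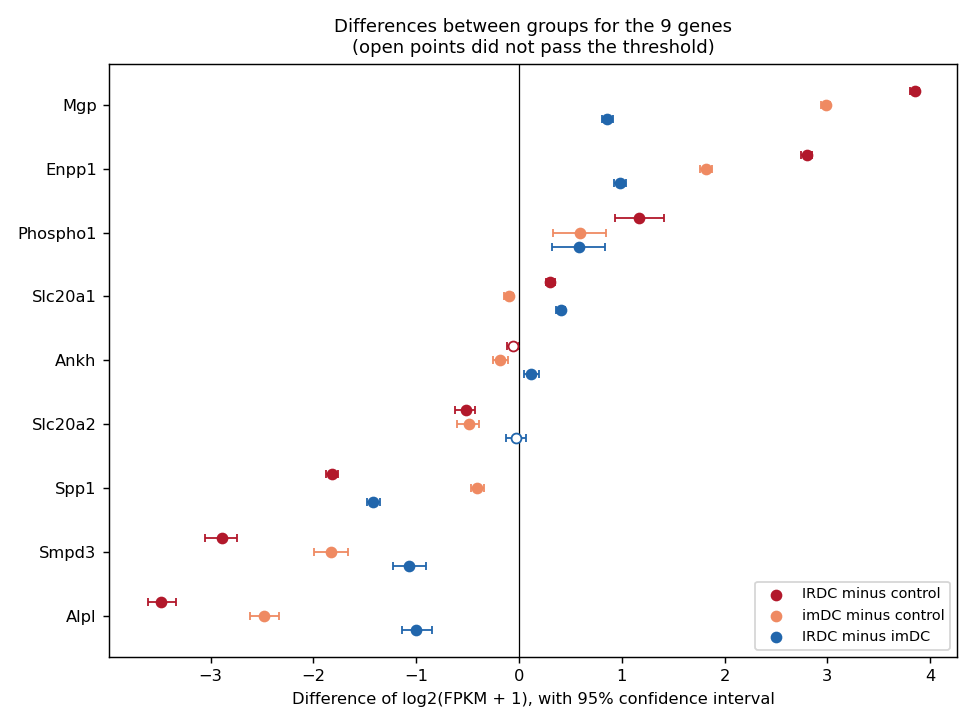
Differences of log2(FPKM + 1) between groups for the 9 genes (horizontal axis) with 95% confidence intervals from limma, with IRDC minus control, imDC minus control and IRDC minus imDC from top to bottom within each gene. Mgp lies furthest right (3.85 in IRDC minus control) and Alpl furthest left (-3.48), and the open points mark Ankh in IRDC minus control and Slc20a2 in IRDC minus imDC, which did not pass.

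For 7 of the 9 genes the imDC mean lay between the control and the IRDC mean, and the exceptions were Ankh and Slc20a1. The 7 include Slc20a2, whose IRDC and imDC libraries overlapped (means of 11.8 and 12 FPKM), so its place is not settled. How many of all tested genes had such an order was not counted, so the 7 cannot be read as a trait of the set. The order of levels changed between groups. In IRDC libraries the order of mean FPKM from the highest was Mgp, Enpp1, Slc20a1, Spp1, Ankh, Slc20a2, Phospho1, Alpl and Smpd3. In imDC libraries it was Mgp, Spp1, Enpp1, Slc20a1, Ankh, Slc20a2, Alpl, Phospho1 and Smpd3. In control libraries it was Spp1, Mgp, Slc20a1, Ankh, Alpl, Enpp1, Slc20a2, Smpd3 and Phospho1. Neighbours in these orders did not overlap, except Alpl and Phospho1 in imDC libraries (4.5 ± 0.208 and 3.93 ± 0.63 FPKM, SD, n = 3). Alpl, 5th in control libraries, was 8th in IRDC libraries, and Enpp1 was 2nd in IRDC libraries and 6th in control libraries.

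Ratios between 2 genes within a library do not depend on scaling by a common factor per library, though quantile normalization can change them. FPKM being per length, the ratio of Enpp1 to Alpl sets the maker of pyrophosphate against the enzyme that removes it, at the level of RNA. There were 72.1 to 96.1 Enpp1 per Alpl in IRDC libraries, 15.5 to 17.2 in imDC libraries and 0.646 to 0.689 in control libraries. On the log2 scale the ratio averaged 6.36 ± 0.197 in IRDC (SD, n = 4), 4.01 ± 0.086 in imDC (n = 3) and -0.58 ± 0.039 in control libraries (n = 4). Alpl RNA was thus in excess in the control libraries and Enpp1 RNA in the others, and the IRDC ratio was 123 times the control ratio and 5.09 times the imDC ratio. Ankh per Alpl was 23.4 to 31.6 in IRDC, 9.12 to 10.7 in imDC and 1.59 to 1.75 in control libraries.

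The balance of the mineral-binding proteins also turned over. Mgp per Spp1 was 30.7 to 33.1 in IRDC libraries, 6.43 to 6.71 in imDC libraries and 0.6 to 0.638 in control libraries. The log2 ratio of Spp1 to Mgp differed by -5.70 between IRDC and control libraries and by -2.29 between IRDC and imDC libraries. Slc20a1 per Slc20a2 varied less, at 7.57 to 8.77 in IRDC, 5.59 to 6.05 in imDC and 4.17 to 4.52 in control libraries. In each of the 4 ratios the 3 groups did not overlap. As these ratios were formed from genes already described, they carry no test of their own.

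**Figure D3:**
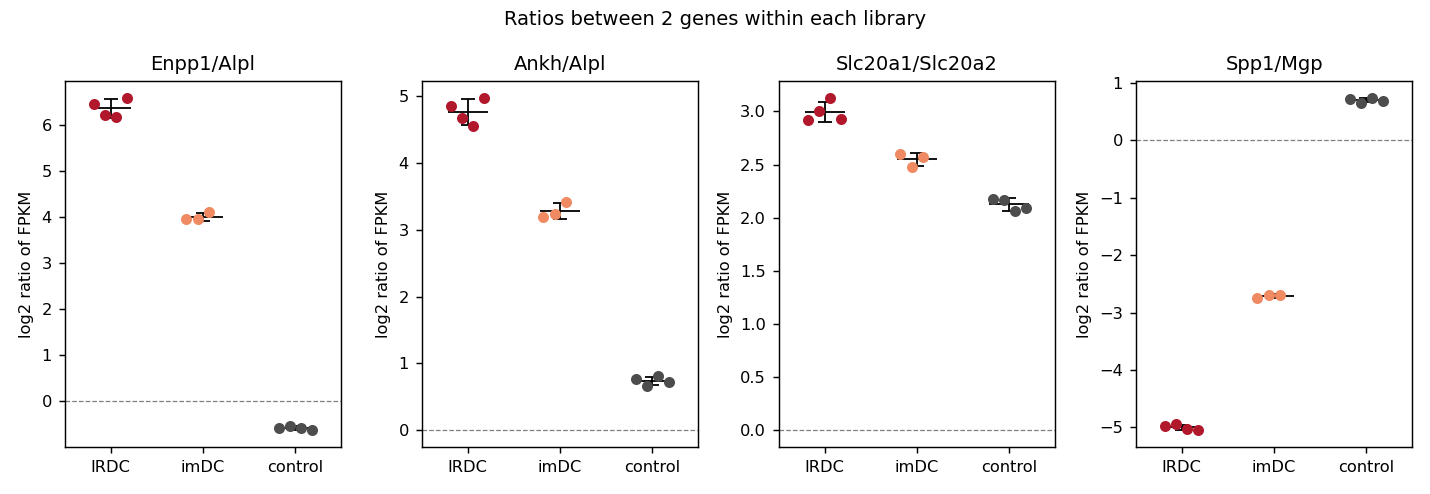
Log2 ratio of FPKM of 2 genes within each library (vertical axes, a separate scale for each ratio) for IRDC, imDC and control libraries, with a point for each library and a bar for the mean ± SD; the dashed line marks equal levels. Enpp1/Alpl lies below the line in the control libraries (-0.63 to -0.54) and above it in imDC (3.95 to 4.11) and IRDC libraries (6.17 to 6.59), and Spp1/Mgp does the reverse.

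To see which genes had a pattern like those of Enpp1 and Alpl, 9399 tested genes with a mean of at least 5 FPKM in their highest group were ranked by the root mean square difference of log2(FPKM + 1) from the control mean over the 11 libraries. The nearest to Enpp1 was Nt5e, at 0.066 log2 units. Nt5e encodes CD73, an ectoenzyme that makes adenosine from AMP, and averaged 164 ± 4.23 FPKM in IRDC, 82.9 ± 0.789 FPKM in imDC and 22.8 ± 1.11 FPKM in control libraries (SD, n = 4, 3 and 4). Next came Sh2b2 (0.069), AABR07032338.1 (0.073), Pim3 (0.094) and Hgf (0.098). The nearest to Alpl were Tm4sf1 (0.102), Epha3 (0.129), Adh7 (0.154), Cryab (0.216) and Tm7sf2 (0.270). Tm4sf1 averaged 0.121, 1.43 and 12 FPKM in IRDC, imDC and control libraries, so its likeness to Alpl holds on the log2(FPKM + 1) scale and not for the plain ratio of levels. The points of each likeness are the same 11 libraries in 3 groups, and it says nothing of shared control.

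Beyond the 9 genes, 67 other genes of phosphate, pyrophosphate and mineral biology were gathered in 5 lists, of which 40 were tested. In IRDC against control 12 rose and 24 fell (median difference -0.25), in imDC against control 12 rose and 23 fell (median -0.15), and in IRDC against imDC 12 rose and 18 fell (median -0.05). These medians stand beside -0.18, -0.09 and -0.09 over all tested genes. Of all tested genes, 24.5% rose and 51.5% fell, 23.1% and 40.1%, and 20.2% and 38.6%, in the same comparisons. Lower calls thus outnumbered higher ones over all genes too, and the excess among the 40 depended on scaling. TMM-like scaling gave 14 higher and 18 lower, 13 and 15, and 15 and 13. Quantile normalization gave 12 and 21, 11 and 20, and 14 and 15.

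Among 15 enzymes of extracellular nucleotides and pyrophosphate, 10 were tested. In IRDC against control 4 rose and 5 fell, in imDC against control 3 rose and 4 fell, and in IRDC against imDC 4 rose and 4 fell. TMM-like scaling gave 5 and 3, 4 and 4, and 5 and 2. Of all tested genes, 24.5% rose and 51.5% fell, 23.1% and 40.1%, and 20.2% and 38.6%, in the same comparisons. Nt5e rose by 2.80 in IRDC (SE 0.032, limma adjusted p = 9.4e-16) and by 1.82 in imDC libraries (SE 0.035, limma adjusted p = 3.9e-13). Acp5, the tartrate-resistant acid phosphatase, had 43.7 ± 1.39 FPKM in IRDC, 24.8 ± 0.417 FPKM in imDC and 7.24 ± 0.411 FPKM in control libraries, and rose by 2.44 (SE 0.039, limma adjusted p = 1.9e-14) and 1.64 (SE 0.042, limma adjusted p = 5.7e-12). Acp5 is also an osteoclast marker, and the 7 osteoclast markers together, most of whose sum is Ctsk and Acp5 itself, came to 171 to 176 FPKM in IRDC, 187 to 189 FPKM in imDC and 216 to 227 FPKM in control libraries. Ctsk averaged 130, 161 and 214 FPKM in IRDC, imDC and control libraries, Atp6v0d2 0.118, 1.17 and 0.871 FPKM, Oscar 0.448, 0.44 and 0.199 FPKM and Ocstamp 0, 0.183 and 0.0106 FPKM, while Calcr and Dcstamp were at 0 in every library. Their part in the Acp5 result was not tested. Enpp3, a relative of Enpp1 that also splits nucleotides, rose by 1.03 in IRDC and by 1.16 in imDC libraries. Enpp5, of the same family, fell by 1.04 in IRDC and by 0.61 in imDC libraries. The Enpp3 difference of -0.13 between IRDC and imDC was no longer called under TMM-like scaling (-0.02).

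The 12 genes of sphingomyelin, choline and matrix vesicles, which surround Smpd3 and Phospho1 in the pathway, were all tested. In IRDC against control 2 rose and 10 fell (2 and 7 under TMM-like scaling, 2 and 8 under quantile normalization), beside 24.5% higher and 51.5% lower among all tested genes. In imDC against control 1 rose and 10 fell (1 and 6, 1 and 9), beside 23.1% and 40.1%. In IRDC against imDC 2 rose and 8 fell (3 and 6 under either scaling), beside 20.2% and 38.6%. The list medians were -0.47, -0.38 and -0.25, beside -0.18, -0.09 and -0.09 over all tested genes. Chka, the choline kinase that makes phosphocholine, fell to 3.06 ± 0.519 FPKM in IRDC and 4.99 ± 0.303 FPKM in imDC, against 11.6 ± 0.465 FPKM in control libraries. Its difference from control was -1.64 (SE 0.079, limma adjusted p = 1e-09) in IRDC and -1.08 (SE 0.086, limma adjusted p = 3e-07) in imDC libraries. The sphingomyelin synthases parted, with Sgms1 at 7.47, 9.41 and 20.1 FPKM and Sgms2 at 37, 33.4 and 16.3 FPKM in IRDC, imDC and control libraries. Sgms1 fell by 1.32 in IRDC (SE 0.061, limma adjusted p = 6.8e-10) and Sgms2 rose by 1.14 (SE 0.040, limma adjusted p = 4.4e-11).

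Anxa5, an annexin carried by matrix vesicles, averaged 113 ± 2.95 FPKM in IRDC, 187 ± 3.35 FPKM in imDC and 341 ± 6.69 FPKM in control libraries, a difference from control of -1.58 (SE 0.022, limma adjusted p = 4.9e-15) in IRDC and -0.86 (SE 0.024, limma adjusted p = 1.1e-11) in imDC libraries. Anxa6 fell by 1.23 in IRDC and by 0.52 in imDC libraries against control. Anxa2 fell by 0.56 in IRDC against control (-0.36 under TMM-like scaling). Its difference of -0.05 in imDC against control varied with scaling, at 0.05 and not called under TMM-like scaling (limma adjusted p = 0.12) and at -0.31 under quantile normalization (limma adjusted p = 2.6e-09).

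Of 10 listed transport genes, 5 were tested, too few to read a direction of the list against the shares of all tested genes. None rose and 4 fell in IRDC against control (24.5% and 51.5% of all tested genes), in imDC against control 0 rose and 5 fell (23.1% and 40.1%), and in IRDC against imDC 1 rose and 1 fell (20.2% and 38.6%). The imDC count of 5 was 2 under TMM-like scaling, and 3 under quantile normalization or without imDC replicate 1, imDC replicate 3 or control replicate 3. Slc25a3, the phosphate carrier of mitochondria, averaged 176 FPKM in IRDC, 211 FPKM in imDC and 222 FPKM in control libraries and fell by 0.33 in IRDC against control (SE 0.020, limma adjusted p = 8.5e-09), a difference of -0.13 under TMM-like scaling (limma adjusted p = 0.00086). Xpr1, the phosphate exporter, had 6.44, 6.02 and 7.03 FPKM, and its difference of -0.19 in imDC against control was not called under either scaling, nor was that of Abcc1 (-0.13). Abcc1, an export pump, differed by -0.17 in IRDC against control (limma adjusted p = 0.0029) and was not called there under TMM-like scaling (0.03) or quantile normalization (-0.03). The widest differences were those of 2 genes expressed under 5 FPKM. Slc37a2, a sugar phosphate exchanger, averaged 1.91, 1.95 and 4.73 FPKM in IRDC, imDC and control libraries and fell by 0.98 in IRDC (SE 0.074, limma adjusted p = 9e-08) and by 0.96 in imDC against control (SE 0.080, limma adjusted p = 4.4e-07). Panx1, a channel that releases ATP, averaged 1.44, 0.932 and 2.42 FPKM and fell by 0.48 (-0.25 under quantile normalization) and 0.82 in the same comparisons. The kidney-type phosphate transporters Slc34a1, Slc34a2 and Slc34a3 and Abcc6, whose loss causes ectopic calcification, averaged at most 0.0211, 0, 0.00797 and 0.00959 FPKM in any group and were not tested.

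**Figure D4:**
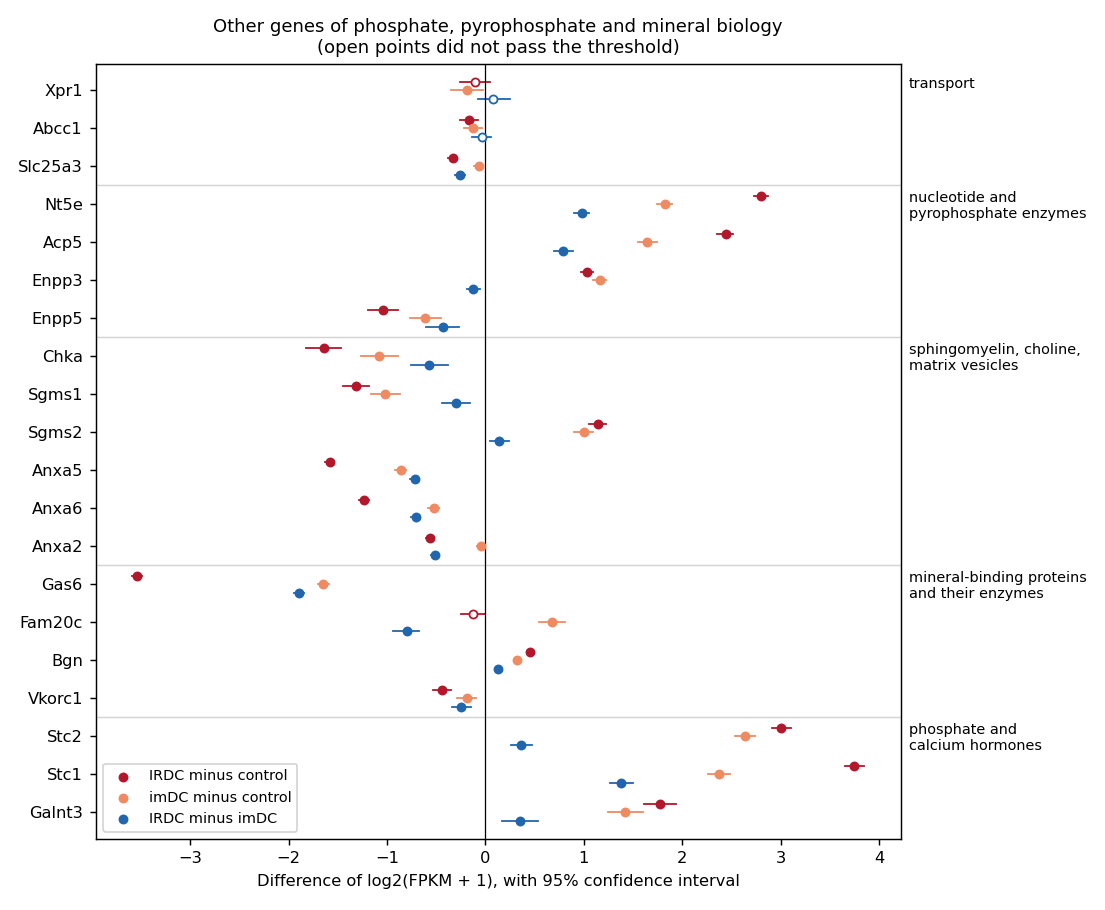
Differences of log2(FPKM + 1) with 95% confidence intervals from limma (horizontal axis) for the genes named by rule from the 5 lists, with IRDC minus control, imDC minus control and IRDC minus imDC from top to bottom within each gene. Stc1 lies furthest right in IRDC minus control (3.75) and Gas6 furthest left (-3.54), and the open points did not pass.

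Of 17 mineral-binding proteins and their modifying enzymes, 7 were tested, and the others include late osteoblast genes that were close to 0. In IRDC against control 3 rose and 2 fell, in imDC against control 5 rose and 2 fell, and in IRDC against imDC 2 rose and 3 fell. TMM-like scaling gave 4 and 2, 5 and 1, and 3 and 3. Of all tested genes, 24.5% rose and 51.5% fell, 23.1% and 40.1%, and 20.2% and 38.6%, in the same comparisons. Ibsp (bone sialoprotein) averaged 0.0123, 0.0673 and 0.272 FPKM and Bglap (osteocalcin) 0.0739, 0.216 and 0.404 FPKM in IRDC, imDC and control libraries, and Dmp1 averaged at most 0.0916 FPKM in any group. Gas6, a vitamin K-dependent protein like Mgp, was reduced where Mgp was raised. It had 38.7 ± 0.794 FPKM in IRDC, 147 ± 4.77 FPKM in imDC and 462 ± 7.67 FPKM in control libraries, and fell by 3.54 (SE 0.023, limma adjusted p = 7e-18) in IRDC against control, by 1.65 (SE 0.025, limma adjusted p = 4.6e-14) in imDC against control and by 1.89 (SE 0.025, limma adjusted p = 2.2e-14) in IRDC against imDC. Vkorc1, the reductase that recycles vitamin K, averaged 15.4, 18.4 and 21.2 FPKM and fell by 0.44 in IRDC libraries (SE 0.041, limma adjusted p = 6e-07), or -0.24 under TMM-like scaling. Its difference of -0.19 in imDC libraries was not called under TMM-like scaling (-0.10). Ggcx, the carboxylase gene of the same list, averaged 38.1, 39.9 and 36.2 FPKM in IRDC, imDC and control libraries. It rose against control by 0.07 in IRDC and by 0.14 in imDC libraries (0.27 and 0.23 under TMM-like scaling). Fam20c, the kinase that phosphorylates secreted proteins such as osteopontin, had 13.8 ± 1.14 FPKM in IRDC, 24.8 ± 1.1 FPKM in imDC and 15.2 ± 0.9 FPKM in control libraries. Fam20c rose by 0.68 in imDC against control (SE 0.062, limma adjusted p = 1e-06) and fell by 0.80 in IRDC against imDC (SE 0.062, limma adjusted p = 2.7e-07), and the IRDC against control difference of -0.13 did not pass (limma adjusted p = 0.061) and was positive under TMM-like scaling (0.07) and quantile normalization (0.01). The proteoglycan gene Bgn rose by 0.45 in IRDC and by 0.32 in imDC against control, values that were both 0.21 under quantile normalization. Its difference of 0.13 between IRDC and imDC was 0.01 and not called there (limma adjusted p = 0.67).

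Among 13 genes of the phosphate and calcium hormone axis, 6 were tested. In IRDC against control 3 rose and 3 fell (24.5% and 51.5% of all tested genes). In imDC against control 3 rose and 2 fell (23.1% and 40.1%). In IRDC against imDC 3 rose and 2 fell (20.2% and 38.6%), or 3 and 1 under either scaling. The genes that rose were the stanniocalcins Stc1 and Stc2, secreted glycoproteins first known as calcium-lowering hormones of fish, and Galnt3, which glycosylates the phosphate hormone encoded by Fgf23. Stc1 had 123 ± 2.16 FPKM in IRDC, 46.6 ± 0.888 FPKM in imDC and 8.26 ± 0.747 FPKM in control libraries, and rose by 3.75 (SE 0.047, limma adjusted p = 2.1e-15), by 2.37 in imDC against control (SE 0.051, limma adjusted p = 1.1e-12) and by 1.38 in IRDC against imDC (SE 0.051, limma adjusted p = 2.5e-10). Stc2 had 95.5, 74.1 and 11 FPKM and Galnt3 12.4, 9.49 and 2.92 FPKM in IRDC, imDC and control libraries. Fgf23 itself averaged 0.0315, 0.186 and 0 FPKM, so its own RNA was close to 0.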

How the data were processed

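Messenger RNA of rat BMSCs was sequenced in 11 libraries. The deposited table gives the authors' FPKM values. The build rn6 and the tools HTSeq 0.13.5, Cufflinks 0.17.3, STAR 2.7.1a, SAMtools 1.3.1, cutadapt 1.18 and FastQC 0.11.9 are listed in the submitters' processing notes. Their roles and the strand setting are not given in the sources used here, so overlapping or antisense genes may share reads. FPKM summed to 424200 to 442750 per library. The FPKM steps resolved into whole reads in all 21487 genes with any signal (within 0.1 read, relative tolerance 1e-08). Those reads gave the depth and an alternative test with voom, which called 9699, 8079 and 7476 genes in IRDC against control, imDC against control and IRDC against imDC.

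Values were taken as log2(FPKM + 1), and a gene was kept if 3 or more libraries reached 1 FPKM. The 11 libraries were fitted together with limma (lmFit, eBayes with a trend), with no replicate block. Benjamini-Hochberg adjustment was over the 12521 genes of each contrast, with calls at adjusted p under 0.05. The fit was also run on simulated data with few changed genes and the same setting of spread for every gene. That run does not check the scaling between libraries. Within-library ratios, ranks and likeness between genes are descriptions without a test. The 9 genes are named in every comparison. From each of 5 companion lists, up to 3 passing genes per comparison with the largest differences and at least 5 FPKM in the higher group are named, as are the 5 genes nearest to Alpl and to Enpp1. Marker genes, genes near 0, Slc37a2, Panx1, Ggcx, Anxa6 in imDC and the further comparisons of these genes were named beside them after their values were seen. The 9 genes and all lists were chosen with earlier results of these data known. Alternatives were voom, leaving out each library, a replicate block, fits restricted to both groups, quantile normalization, TMM-like scaling, filtering at 5 FPKM or not at all, and pseudocounts of 0.5 and 0.1. The alternatives for the companion lists were added after the data were seen. Promoter windows came from RefSeq (GRCr8). Versions were limma 3.58.1 in R 4.3.3, and pandas 2.3.3, matplotlib 3.10.9 and NumPy 2.4.6 in Python 3.11.15.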

Additional observations from a re-analysis of the deposited data

Results flagged for a closer look

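Of 26 groups of 4 libraries examined, 4 held a library farther from the others than the 95% limit for a gap relative to the range (0.829), and chance alone marks about 1 in 20 groups. Phospho1 in control libraries had its lowest value, 1.8 FPKM, below the others (highest 2.48 FPKM, gap over range 0.846). Enpp1 in control libraries had its highest value, 20.9 FPKM, above the others (lowest 19.5 FPKM, gap over range 0.988). Ankh in IRDC libraries had its highest value, 48.7 FPKM, above the others (lowest 47.1 FPKM, gap over range 0.909). Mgp in control libraries had its lowest value, 145 FPKM, below the others (highest 155 FPKM, gap over range 0.915).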

How the results depend on the processing

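Under 20 alternatives, 532 of 540 differences of the 9 genes kept their sign and their side of the threshold. Part of this count was fixed in advance. Filters, fits restricted to both groups and leaving out a library of the group not compared cannot change a difference, only its p-value. The signs that turned were those of Ankh in IRDC against control (0.1434 under TMM-like scaling, 0.005259 under quantile normalization) and Slc20a2 in IRDC against imDC (0.06771, 0.04482, and -0.04677 to 0.001907 over the fits that left out 1 library, positive only without IRDC replicate 3). Ankh and Slc20a1 in imDC against control lost their call under TMM-like scaling, and Ankh in IRDC against control gained 1 without control replicate 2. Both scalings shift the centre of all genes: in IRDC against control the median moved by 0.182 (TMM-like) or 0.151 (quantile), and by 0.135 without a filter. In IRDC against control, imDC against control and IRDC against imDC, TMM-like scaling called 9, 7 and 8 of the 9 genes. Leaving out 1 library gave 9244 to 9489, 7342 to 7890 and 6739 to 7340 genes called, and 8 to 9, 9 and 8 of the 9 genes. The replicate block gave 9508, 7733 and 7110 genes called and changed no call of the 9 genes. Deviations of libraries of the same number correlated at -0.048 to 0.069 over 10 pairs, beside -0.063 to 0.055 over 30 other pairs. Between IRDC and control libraries, same-number pairs gave 0.037, 0.069, 0.067 and 0.022, beside -0.063 to 0.018 for other numbers. Same-number pairs with imDC libraries gave -0.048 to 0.041. Such small values cannot show whether the numbers mark pairs. Depth limits Smpd3 most, with 27 to 42 reads per IRDC library.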

Other observations

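Vdr, the vitamin D receptor gene of the hormone list, was named after its values were seen. It averaged 1.08 ± 0.278 FPKM in IRDC, 3.41 ± 0.364 FPKM in imDC and 3.4 ± 0.172 FPKM in control libraries (SD, n = 4, 3 and 4). It fell by 1.09 in IRDC against control (SE 0.096, limma adjusted p = 4.1e-07), while the imDC against control difference had a 95% confidence interval of -0.23 to 0.23 and did not pass. Pth1r, the receptor for parathyroid hormone, averaged 3.23, 3.27 and 6.72 FPKM in IRDC, imDC and control libraries and fell by 0.87 in IRDC (limma adjusted p = 9.6e-06) and by 0.86 in imDC libraries (limma adjusted p = 3.7e-05). Tgm2, the transglutaminase that crosslinks matrix proteins, averaged 2.86, 2.07 and 0.601 FPKM and rose by 1.27 in IRDC (limma adjusted p = 2.6e-08) and by 0.94 in imDC libraries (limma adjusted p = 1.9e-06).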
